A study of Mus musculus with 8 samples.

Results

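Galanin, neuropeptide Y (NPY), substance P, calcitonin gene-related peptide (CGRP), somatostatin and cholecystokinin are signalling peptides of sensory neurons, and the 10 genes described here encode receptors for them that are studied in sensory ganglia. The genes were Galr1, Galr2, Npy1r, Npy2r, Tacr1, Calcrl, Ramp1, Sstr1, Sstr2 and Cckbr. They were found as all probe sets, the oligonucleotide groups by which the array reads a transcript, whose platform annotation gives one of these symbols alone. This gave 18 of 45037 probe sets. A gene was represented by its brightest probe set, so the receptors were 10 of 18193 measured genes. Of the 10, 2 (Galr2 and Sstr1) had a mean under a log2 signal of 6 in both groups.

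RNA of mouse trigeminal ganglia, where the neurons that sense touch, heat and pain in the face have their somata, was hybridised to Affymetrix Mouse Genome arrays in a single contrast. The 4 daDREAM arrays hold RNA of mice transgenic for daDREAM, and the 4 control arrays that of mice labelled control. Per the labels, both groups were adult males of the C57B/6XCBA background. DREAM, a repressor of transcription that binds calcium, is encoded by Kcnip3, and daDREAM is a mutant form that stays on DNA when calcium rises. All daDREAM titles carry the tag tg16. The sources used here do not give the promoter that drives the transgene, the number of founder lines or whether RNA was pooled over animals. The labels name 4 biological replicates per sample type. A p-value sets a difference against the spread between these samples, which may not be the spread between single animals.

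All but one of these proteins are receptors that couple to G proteins, and the exception, Ramp1, is an accessory protein. Galr1, Npy1r, Npy2r, Sstr1 and Sstr2 act mainly through inhibitory G proteins that lower cyclic AMP, whereas Galr2, Tacr1 and Cckbr act mainly through Gq, which releases calcium from stores. Calcrl needs a RAMP protein at the cell surface, and the pair of Calcrl and Ramp1 is the receptor of CGRP, a peptide known for its part in migraine. In bulk tissue, fewer cells of a type and less RNA per cell cannot be told apart.

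DREAM binds DNA at the downstream regulatory element (DRE), whose core is GTCA. The table of RefSeq promoter sequences (build GRCm38.p6) held 8 of the 10 receptors: Galr2, Npy1r, Npy2r, Tacr1, Calcrl, Ramp1, Sstr2 and Cckbr. Each window runs from 250 bases before to 50 bases after the gene's start. The windows of the receptors on which the results below turn are shown 5′ to 3′ on the gene's strand, with the DRE core on either strand in capitals: Galr2 (chr11:116280689-116280988, + strand), Npy1r (chr8:66697172-66697471, + strand) and Npy2r (chr3:82548036-82548335, - strand).
Galr2: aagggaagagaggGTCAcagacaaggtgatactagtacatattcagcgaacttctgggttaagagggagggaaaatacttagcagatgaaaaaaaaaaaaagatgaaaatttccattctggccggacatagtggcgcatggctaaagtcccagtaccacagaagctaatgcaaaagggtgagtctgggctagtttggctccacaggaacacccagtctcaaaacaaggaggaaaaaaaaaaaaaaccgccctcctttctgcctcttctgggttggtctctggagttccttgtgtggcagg
Npy1r: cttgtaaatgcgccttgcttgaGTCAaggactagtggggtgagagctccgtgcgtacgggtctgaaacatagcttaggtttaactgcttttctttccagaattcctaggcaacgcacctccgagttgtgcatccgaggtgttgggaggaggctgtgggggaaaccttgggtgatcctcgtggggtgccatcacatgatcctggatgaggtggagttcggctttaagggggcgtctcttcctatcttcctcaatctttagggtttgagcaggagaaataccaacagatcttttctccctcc
Npy2r: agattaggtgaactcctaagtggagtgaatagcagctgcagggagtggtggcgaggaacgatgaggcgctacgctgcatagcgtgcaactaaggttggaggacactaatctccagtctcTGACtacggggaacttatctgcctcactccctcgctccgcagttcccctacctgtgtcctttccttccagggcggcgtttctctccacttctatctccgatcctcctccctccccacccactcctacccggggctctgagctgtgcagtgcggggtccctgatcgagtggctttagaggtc

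Each of these 3 windows held 1 match to GTCA, on the gene's own strand in Galr2 and Npy1r and on the other strand in Npy2r. The matches lie before the gene's start, at -237 in Galr2, -228 in Npy1r and -131 in Npy2r. The motif is short, and 85.2% of all 32851 promoter windows held at least 1 match on either strand. Tacr1 had 3 matches, Calcrl 2, Cckbr 1, Sstr2 4 and Ramp1 5, and 7.48% of all windows had as many as Ramp1 or more. The match of Npy1r lies within the letters GAGTCAAGG, those of the DRE of the human prodynorphin gene. This longer motif was searched after the Npy1r window had been seen, and 0.326% of all windows held it on either strand, Npy1r alone among the 8 receptors. The cAMP response element TGACGTCA, which itself holds the DRE core, was found in the window of Sstr2 and in 1.79% of all windows. These matches are descriptions of letters, not of binding.

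Several arrays carried signs of other tissue or went against the label of male mice. Xist, the RNA of the inactive X chromosome of females, read 9.92 on daDREAM replicate 4 and 7.77 and 9.93 on control replicates 3 and 4, against 3.89 to 4.02 on the other 5 arrays at the same probe set. On daDREAM replicate 4 the Y-linked genes Eif2s3y, Kdm5d and Uty were also low (4.46, 3.80 and 3.66 at a probe set each). On control replicate 4 they were reduced at the same probe sets (7.16, 4.79 and 5.44), and on the other 6 arrays they read 8.40 to 9.04, 6.44 to 7.12 and 6.82 to 7.38. The pituitary hormone Gh was highest on daDREAM replicates 3 and 4 and control replicate 3 (12.50, 13.43 and 11.15). It read 9.04 to 10.66 on the other arrays, so it was bright on every array. The muscle actin Acta1 was highest on control replicates 1 and 3 (9.20 and 9.40) and read 6.60 to 7.07 on the other arrays. Gfap, an astrocyte filament, read 10.77 to 11.24 on daDREAM arrays and 8.63, 10.20, 10.22 and 8.29 on control arrays at its brightest probe set, so control replicates 1 and 4 were lowest there. Another Gfap probe set read 8.82 to 9.15 on daDREAM arrays and 5.68 to 5.98 on all control arrays, and was 8.86-fold higher in daDREAM (limma adjusted p = 6.22e-09 over probe sets). A further Gfap probe set read 9.79 to 10.38 on daDREAM arrays and 8.36 to 10.18 on control arrays, with overlapping groups. Its difference was 0.65 (limma adjusted p = 0.307 over probe sets). Which cells gave the Gfap signal was not tested. Kcnip3 read 10.26 ± 0.07 in daDREAM and 10.23 ± 0.15 in control ganglia (SD, n = 4 each). Its other probe set differed by 0.27 (limma adjusted p = 0.346 over probe sets). Neither checks the labels, because it is not known whether these probe sets read the transgene. Neuron markers were bright throughout, with a mean log2 signal over 14 markers of 11.62 to 11.77 in daDREAM and 11.61 to 11.76 in control arrays.

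Galr2 was lower in daDREAM ganglia and was the 1 receptor gene of 10 to pass the test over all genes. Values are log2 expression, and a gene passed at an adjusted p under 0.05 in limma, which compares groups with a variance shared in part across genes. Over all 18193 genes, 2.00% passed in either direction, 0.984% as higher and 1.02% as lower. Npy1r, an NPY receptor, was higher by nearly the same amount and passed over probe sets but not over genes. The other 8 receptors did not pass, with differences between -0.26 and 0.37.

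Galr2 (probe set 1422942_at) read 5.37, 5.60, 5.63 and 5.35 in daDREAM ganglia and 5.72, 6.18, 6.06 and 5.98 in control ganglia. Every daDREAM array lay below every control array, with the gap smallest to control replicate 1. The means were 5.49 ± 0.15 in daDREAM and 5.99 ± 0.19 in control ganglia (SD, n = 4 each). The difference was -0.50 (SE 0.11, 95% interval -0.73 to -0.26, limma adjusted p = 0.0390), which is 1.41-fold lower. Of all genes, 2.2% differed by as much in either direction. Both means lie under 6, where signal and background are hard to separate: probe sets of Xist read 3.89 to 4.02 and 6.10 to 6.49 on the 5 arrays without Xist signal.

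The Galr2 call was lost without most single arrays and kept without control replicate 1. The limma adjusted p was 0.113, 0.0750, 0.0584 and 0.0976 without daDREAM replicates 1, 2, 3 and 4 in turn. Leaving out control replicate 2, 3 or 4 gave 0.0822, 0.0855 or 0.0722, and leaving out control replicate 1 gave 0.0166. It was 0.281 without the arrays richest in Gh, daDREAM replicates 3 and 4 and control replicate 3 (difference -0.475). It was 0.256 without those with Xist signal, daDREAM replicate 4 and control replicates 3 and 4 (difference -0.42). These settings left fewer arrays in both groups, and over all genes 98 and 213 passed in turn, against 364 with all arrays. The difference stayed negative, between -0.63 and -0.42, in all 20 alternatives that measured it, and it passed in 8 of them. Galr2 has 1 probe set, so the mean of probe sets and the most variable probe set, both among the 8, left its values unchanged. A fit with the replicate numbers as a block is also among the 8, although these numbers were not taken as a pairing.

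**Figure D1:**
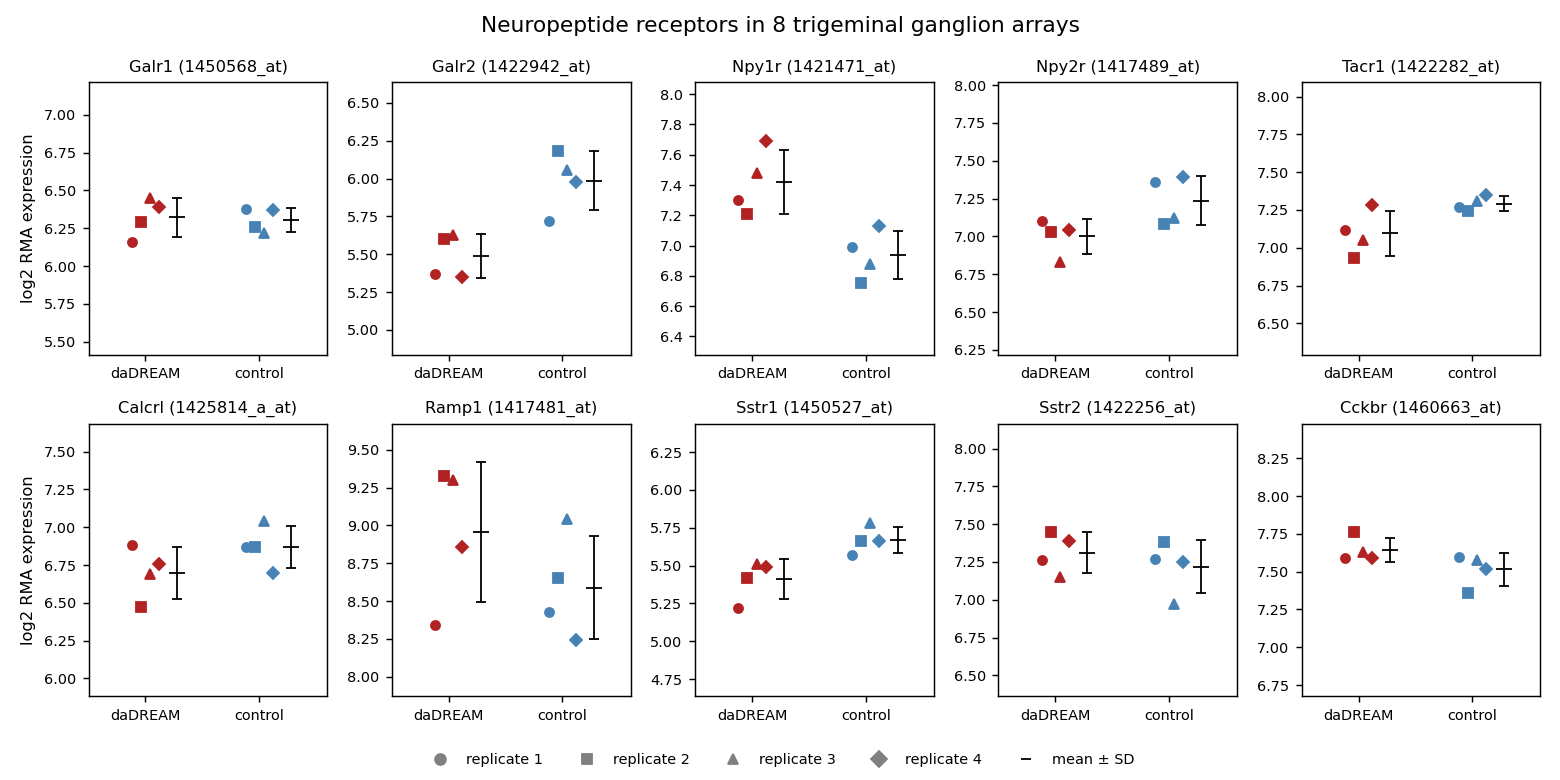
Log2 RMA expression of the 10 receptors at the brightest probe set of each gene, one point per array (daDREAM left, control right), with mean ± SD beside the points and each axis spanning the same log2 range. All daDREAM points of Galr2 and Sstr1 lie below the control points, and all daDREAM points of Npy1r lie above them. Ramp1 has the widest spread within groups.

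Galr1, the inhibitory galanin receptor, read 6.16, 6.29, 6.45 and 6.39 in daDREAM ganglia and 6.38, 6.26, 6.22 and 6.37 in control ganglia. The groups overlapped fully. The difference was 0.02 (95% interval -0.16 to 0.19, limma adjusted p = 0.942), and its sign turned with several settings. Its dimmer probe sets, both under 6, read -0.16 and -0.03 as differences without passing. Gal, the gene of galanin itself, differed by 0.03 (limma adjusted p = 0.901), with a sign that also turned.

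Npy1r encodes the Y1 receptor, and its brighter probe set (1421471_at) read 7.30, 7.21, 7.48 and 7.69 in daDREAM ganglia and 6.99, 6.75, 6.88 and 7.13 in control ganglia. No daDREAM array fell within the range of the control arrays, and daDREAM replicates 3 and 4, both rich in Gh, read highest. The control arrays did not follow this order. Control replicate 3, their richest in Gh (11.15), read 6.88, and control replicate 4, their lowest (9.08), read highest. Replicate 4 of each group carried Xist signal, as did control replicate 3. The means were 7.42 ± 0.21 in daDREAM and 6.94 ± 0.16 in control ganglia (SD, n = 4 each). The difference was 0.48 (SE 0.11, 95% interval 0.23 to 0.73), which is 1.40-fold higher. Limma gave an adjusted p = 0.0607 over genes and an adjusted p = 0.0495 over probe sets. Of probe sets, 2.74% passed in either direction, 1.42% as higher and 1.32% as lower, and 2 of the 18 receptor probe sets did, 1 higher and 1 lower.

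Over probe sets the Npy1r call was lost without daDREAM replicate 1, 3 or 4 or control replicate 1, 2 or 3, with a limma adjusted p of 0.0780, 0.132, 0.101, 0.0939, 0.102 and 0.0890 in turn. Without the arrays with the most Gh the difference was 0.30 (limma adjusted p = 0.369 over probe sets). Whether pituitary tissue on these arrays contributed was not tested. The other Npy1r probe set (1426054_at) had means of 4.49 ± 0.15 in daDREAM and 4.61 ± 0.17 in control ganglia (SD, n = 4 each), and its difference of -0.12 did not pass. With the mean of both probe sets Npy1r differed by 0.18.

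Npy2r, the Y2 receptor that restrains transmitter release at nerve terminals, read 7.1, 7.03, 6.83 and 7.04 in daDREAM ganglia and 7.36, 7.08, 7.12 and 7.39 in control ganglia. The groups overlapped at daDREAM replicate 1 and control replicate 2. The difference was -0.24 (95% interval -0.44 to -0.03, limma adjusted p = 0.224). Npy, the gene of the shared ligand, differed by -0.03 (limma adjusted p = 0.958). Npy read 7.07, 7.90, 7.65 and 7.02 in daDREAM ganglia and 7.29 to 7.61 in control ganglia, so its spread was wider in the daDREAM group.

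**Figure D2:**
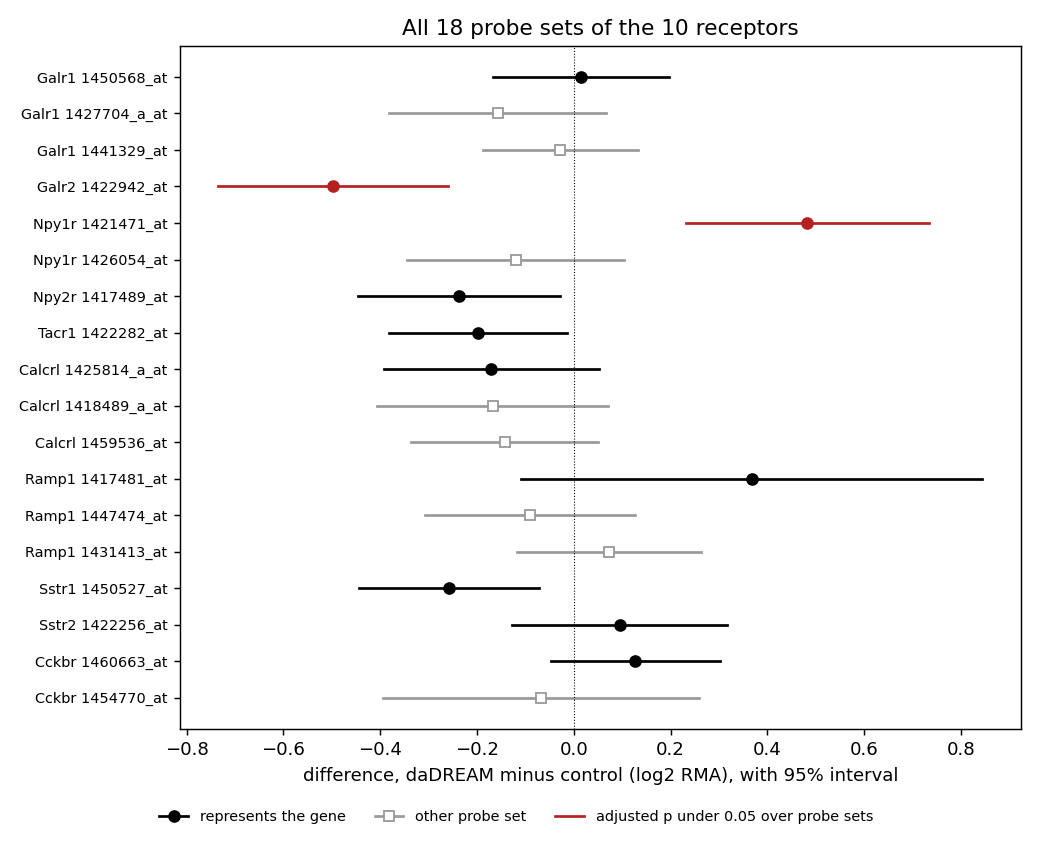
Difference between daDREAM and control ganglia (log2 RMA, horizontal axis) with its 95% interval from limma for each of the 18 probe sets, filled circles marking the probe set that represents the gene and open squares the others. The probe set of Galr2 (-0.50) and the brighter one of Npy1r (0.48), in red, passed over probe sets.

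Related receptors were compared within each array, which asks whether one changed more than the other. A two-sided exact permutation test over all 70 assignments of arrays to groups was used, whose smallest possible p is 0.0286, and p-values were adjusted over 4 pairs. The within-array difference of Npy2r minus Npy1r was -0.20, -0.18, -0.65 and -0.65 in daDREAM ganglia and 0.37, 0.33, 0.24 and 0.26 in control ganglia. Every daDREAM array lay below every control array, and the shift was -0.72 (exact p = 0.0286, adjusted p = 0.0572). Galr2 minus Galr1 shifted by -0.51, with every daDREAM array below every control array (exact p = 0.0286, adjusted p = 0.0572). Sstr2 minus Sstr1 shifted by 0.35 (exact p = 0.0857, adjusted p = 0.114) and Ramp1 minus Calcrl by 0.54 (exact p = 0.2, adjusted p = 0.2), with overlapping groups in both. No pair passed after adjustment.

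**Figure D3:**
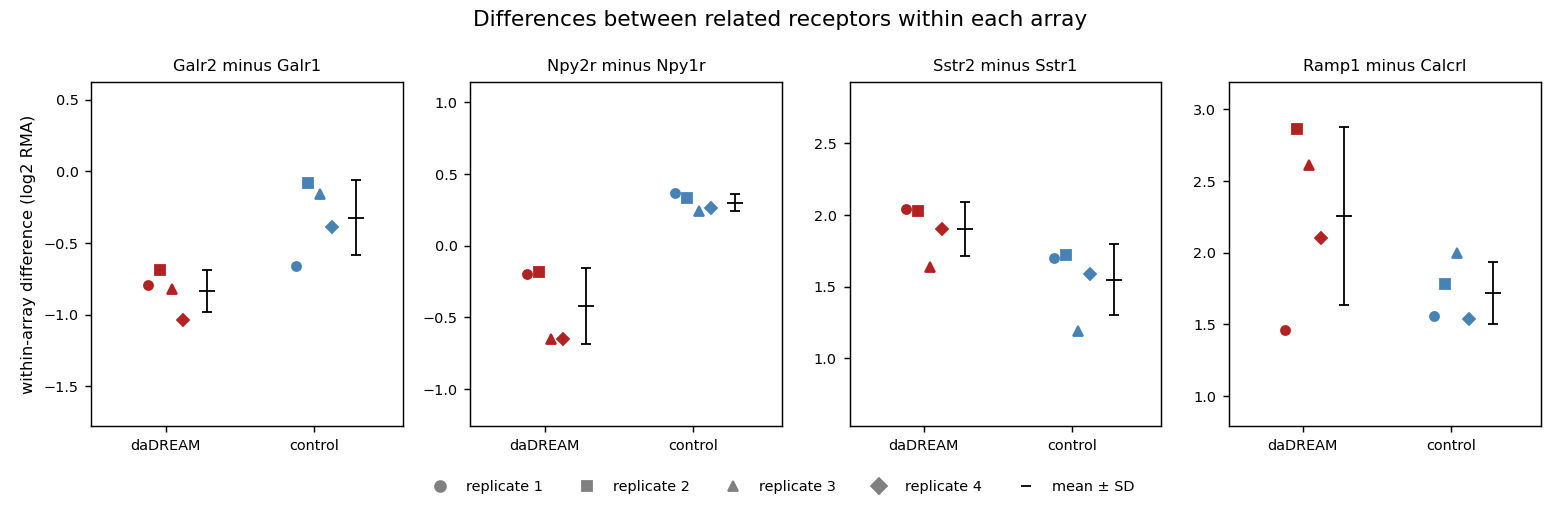
Log2 RMA difference between 2 related receptors on the same array (vertical axis), one point per array, daDREAM left and control right, with mean ± SD. For Npy2r minus Npy1r the daDREAM arrays lie from -0.65 to -0.18 and the control arrays from 0.24 to 0.37, and for Galr2 minus Galr1 the groups are also separate.

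Tacr1, the receptor of substance P, read 7.12, 6.93, 7.05 and 7.28 in daDREAM ganglia and 7.27, 7.24, 7.31 and 7.35 in control ganglia. Only daDREAM replicate 4 reached the control range. The difference was -0.20 (95% interval -0.38 to -0.02, limma adjusted p = 0.242). Tac1, the precursor gene of substance P, differed by -0.08 (limma adjusted p = 0.670).

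The CGRP receptor showed no change that passed in either of its genes. Calcrl read 6.88, 6.47, 6.69 and 6.76 in daDREAM ganglia and 6.87, 6.87, 7.04 and 6.70 in control ganglia, with overlapping groups and a difference of -0.17 (95% interval -0.39 to 0.05, limma adjusted p = 0.392). It lay between -0.23 (without daDREAM replicate 1) and -0.09 (without daDREAM replicate 2) when 1 array was left out. Its other probe sets, with means under 5 in both groups, gave -0.17 and -0.14. Calcrl is also abundant in vessels, and of 11 endothelial markers 1 passed as higher: Cldn5, a tight junction protein, by 0.57 (limma adjusted p = 0.00975). That call was lost when the arrays richest in Gh or Acta1, those with Xist signal or those with the least Gfap were left out. The median of the endothelial list was 0.15, and the part of vessel content in the value of Calcrl was not tested.

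Ramp1 read 8.34, 9.33, 9.30 and 8.86 in daDREAM ganglia and 8.43, 8.65, 9.04 and 8.24 in control ganglia. Arrays of the same group lay far apart, and the groups overlapped over most of their range. The difference was 0.37 (95% interval -0.11 to 0.85, limma adjusted p = 0.394). Leaving out 1 array moved it between 0.24 (without daDREAM replicate 2) and 0.57 (without daDREAM replicate 1), and none of these passed. Its residual SD within groups was 0.408, and 0.824% of all genes varied as much. The dimmer Ramp1 probe sets differed by -0.09 and 0.07. Among the other genes of this system, Calcb, which encodes beta-CGRP, differed by -0.30 (limma adjusted p = 0.160). The adrenomedullin receptor subunits Ramp2 and Ramp3 differed by -0.05 and -0.26, and neither passed.

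Sstr1, a somatostatin receptor, read 5.22, 5.42, 5.51 and 5.49 in daDREAM ganglia and 5.57, 5.66, 5.78 and 5.66 in control ganglia. The groups did not overlap, and all values lay under 6. The difference was -0.26 (95% interval -0.44 to -0.07, limma adjusted p = 0.151). Groups did not overlap in 3 of 10 receptors (Galr2, Npy1r and Sstr1) and in 10.7% of all genes. Sstr2, the receptor that binds octreotide, read 7.26, 7.45, 7.15 and 7.39 in daDREAM ganglia and 7.27, 7.38, 6.97 and 7.25 in control ganglia. Its groups overlapped, and the difference was 0.10 (95% interval -0.13 to 0.32, limma adjusted p = 0.642). Sst, the gene of somatostatin, differed by 0.30 (limma adjusted p = 0.407).

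Cckbr, the receptor shared by cholecystokinin and gastrin, read 7.59, 7.76, 7.63 and 7.59 in daDREAM ganglia and 7.60, 7.36, 7.58 and 7.52 in control ganglia. Its difference was 0.13 (95% interval -0.04 to 0.30, limma adjusted p = 0.407). The other Cckbr probe set was of similar brightness and gave -0.07 (95% interval -0.39 to 0.26), so the sign depended on the probe set. It read 7.13, 7.75, 7.77 and 7.25 in daDREAM ganglia, where daDREAM replicates 2 and 3 stood above 1 and 4. Cck, the ligand gene, differed by 0.40 (limma adjusted p = 0.424).

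Across the 10 receptors 5 differences were positive and 5 negative, with a median of -0.08 against 0 over all genes. An unadjusted limma p under 0.05 was found for 5 of the 10 (1 higher, 4 lower) and for 18.2% of all genes. Genes with a mean signal between 6 and 8 had a median difference of -0.04, and those under 6 one of -0.06.

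**Figure D4:**
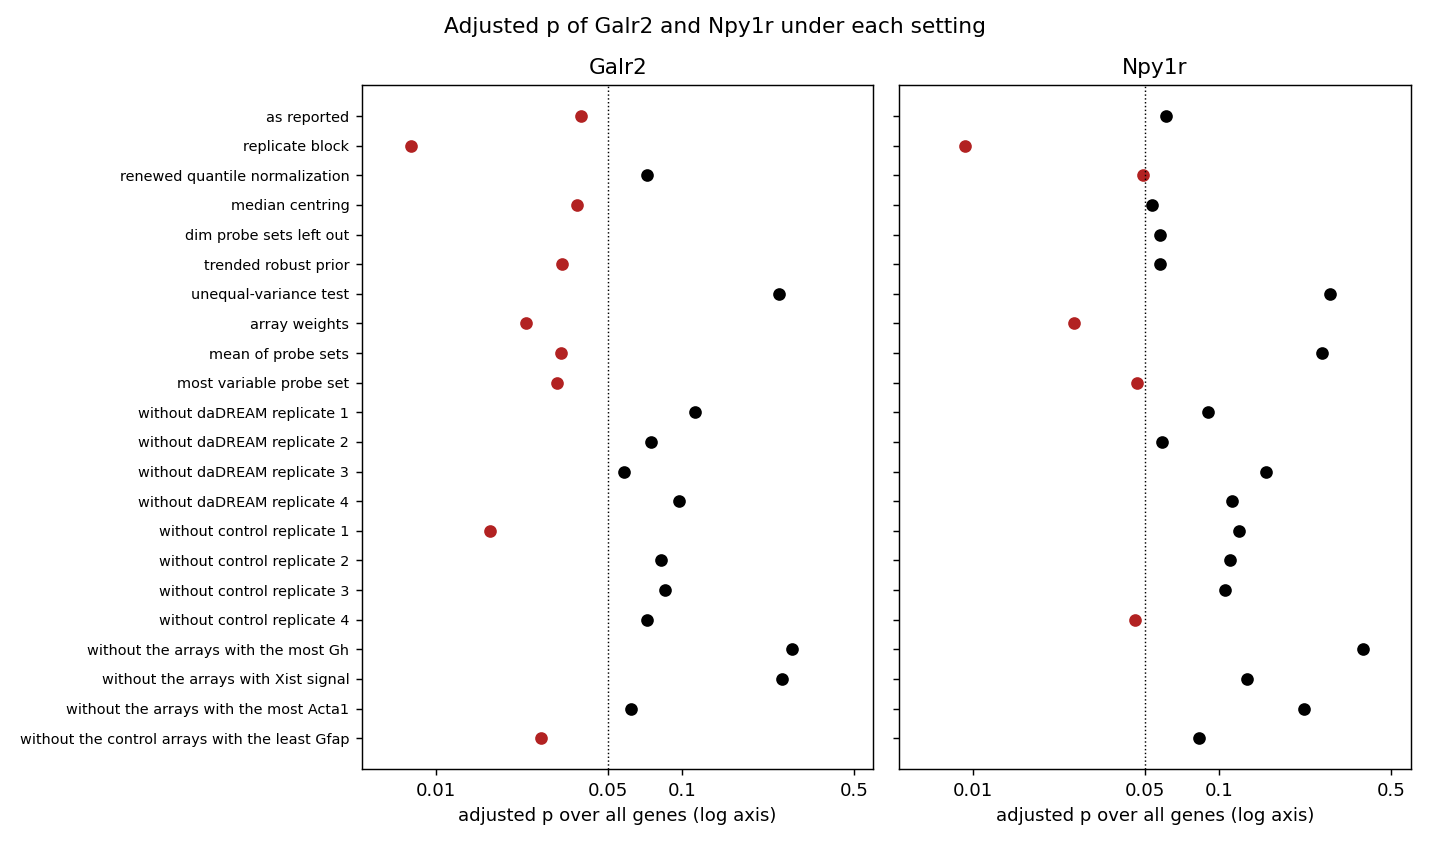
Limma adjusted p over all genes (horizontal axis, log scale) for Galr2 and Npy1r, one point per processing setting or left-out array, with the threshold of 0.05 dotted and values below it in red. Dim probe sets left out has no point for Galr2, whose means are under 6. Galr2 passes in 8 of 20 alternatives and Npy1r in 5 of 21. The settings of probe set choice left the values of Galr2 itself unchanged, and the most variable probe set left those of Npy1r unchanged. Both counts include the replicate block, although the replicate numbers were not taken as a pairing.

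Peptides and further receptors of the same families did not pass. Of 16 listed ligand genes 14 were measured, and Calca, the other CGRP gene beside Calcb, was not among these. Of the 14, 0 passed in limma, 2 had an unadjusted p under 0.05, and the median difference was -0.07. The unequal-variance test also gave 0. The smallest p was that of Calcb. Of 13 other receptors and subunits of these families 0 passed in limma and by the unequal-variance test, and 4 had an unadjusted p under 0.05. Of their differences 10 were negative, as were 9103 of those of all 18193 genes. Cckar, the second cholecystokinin receptor, had the smallest p, with a difference of -0.27 (limma adjusted p = 0.198). Of 22 receptors of other neuropeptides 0 passed in limma and by the unequal-variance test, and 2 had an unadjusted p under 0.05. Nmur2, a receptor of neuromedin U, came closest at -0.38 (limma adjusted p = 0.0809), with control values of 5.71 to 6.15.

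Genes that act after or around the receptors changed in single cases. Of 17 receptor kinases, arrestins and RGS proteins, which end G protein signals, 1 rose and 1 fell. Over all genes 2.00% passed in either direction. Rgs2, which acts on Gq, read 9.27, 9.45, 9.28 and 9.23 in daDREAM ganglia and 8.93, 8.78, 9.01 and 8.50 in control ganglia, and was 1.42-fold higher (limma adjusted p = 0.0376). Its groups did not overlap. Other Rgs2 probe sets differed by 0.40, 0.30 and -0.15, and none passed over probe sets.

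Rgs14, which acts on inhibitory G proteins, read 7.65, 7.72, 7.66 and 7.81 in daDREAM ganglia and 8.07, 8.12, 7.97 and 8.07 in control ganglia. Its groups did not overlap, and it was 1.27-fold lower (limma adjusted p = 0.0272). Both calls were lost when the arrays richest in Gh, those with Xist signal or those with the least Gfap were left out, and 0 of the 17 passed by the unequal-variance test. Both were also lost without daDREAM replicate 1, 2 or 3, and without control replicate 1 or 2. Rgs2 alone was lost without daDREAM replicate 4.

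Among 10 peptidases that cut neuropeptides 1 fell, where 1.02% of all genes passed as lower. Nln, neurolysin, which cleaves neurotensin, read 7.22, 7.1, 6.69 and 7.06 in daDREAM ganglia and 7.84, 7.89, 7.90 and 7.68 in control ganglia. The groups were far apart, and Nln was 1.75-fold lower (difference -0.81, SE 0.11, limma adjusted p = 0.00215). The other Nln probe set differed by 0.04 (limma adjusted p = 0.886 over probe sets), with means of 6.13 ± 0.10 in daDREAM and 6.10 ± 0.19 in control ganglia (SD, n = 4 each). The Nln call held without each array in turn, and was lost without the arrays with the most Gh, without those with the most Acta1 and by the unequal-variance test. Of 18 G protein subunits 0 passed in limma and by the unequal-variance test, with 6 at an unadjusted p under 0.05. Gnb4 had the smallest p, with a difference of 0.32 (limma adjusted p = 0.132). Another Gnb4 probe set, chosen for mention after its value was seen, was higher by 1.01 (limma adjusted p = 7.84e-05 over probe sets).

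Marker lists of the tissue's cells gave the setting of these values. None of 14 sensory neuron markers passed in limma or by the unequal-variance test, 0 had an unadjusted p under 0.05, and the median was 0.01; Nefh, a neurofilament, had the smallest p with 0.15. Of 9 satellite glia and Schwann cell markers 0 passed in limma and by the unequal-variance test, with 2 at an unadjusted p under 0.05, a median of 0.01 and Fabp7 at 0.42. Smooth muscle and pericyte markers (0 of 10, 2 at an unadjusted p under 0.05, median -0.09, Kcnj8 at -0.29) and macrophage markers (0 of 9, 0 at an unadjusted p under 0.05, median 0.05, Itgam at 0.17) did not pass either, nor by the unequal-variance test. Of 11 endothelial markers 1 passed, as above.

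The mean levels of central nervous system and of skeletal muscle markers did not overlap between the groups, and those of pituitary markers did. Markers of muscle were high on control replicates 1 and 3 only (means of 7.76 and 7.39). Control replicates 2 and 4 (6.17 and 6.13) lay just above the highest daDREAM mean of 6.10. All 11 central nervous system markers were above 0 with a median of 0.70, 8 of the 11 reached an unadjusted p under 0.05 (all higher), and 1 passed over all genes, the water channel Aqp4 (0.76, limma adjusted p = 0.0173), a call lost without daDREAM replicate 3 or 4 or control replicate 1. Their mean log2 signal per array was 9.76 to 10.37 in daDREAM and 8.89 to 9.60 in control arrays, without overlap, and none of them was under 6 on all arrays. Skeletal muscle markers had a mean of 6.03 to 6.10 in daDREAM and 6.13 to 7.76 in control arrays, with 0 of 10 passing in limma and by the unequal-variance test, 6 at an unadjusted p under 0.05, a median of -0.64 and Myl1 at -0.99; Myh2 was under 6 on all arrays. Pituitary markers had a mean of 6.55 to 9.0 in daDREAM and 6.74 to 7.81 in control arrays, with 0 of 7 passing in limma and by the unequal-variance test, 0 at an unadjusted p under 0.05, a median of 0.16 and Gh at 1.45; Fshb was under 6 on all arrays. The part of these tissues in the values of Galr2 and Npy1r was not tested. Without the control arrays with the least Gfap, Galr2 differed by -0.63 (limma adjusted p = 0.0268) and Npy1r by 0.61 (limma adjusted p = 0.0826).

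**Figure D5:**
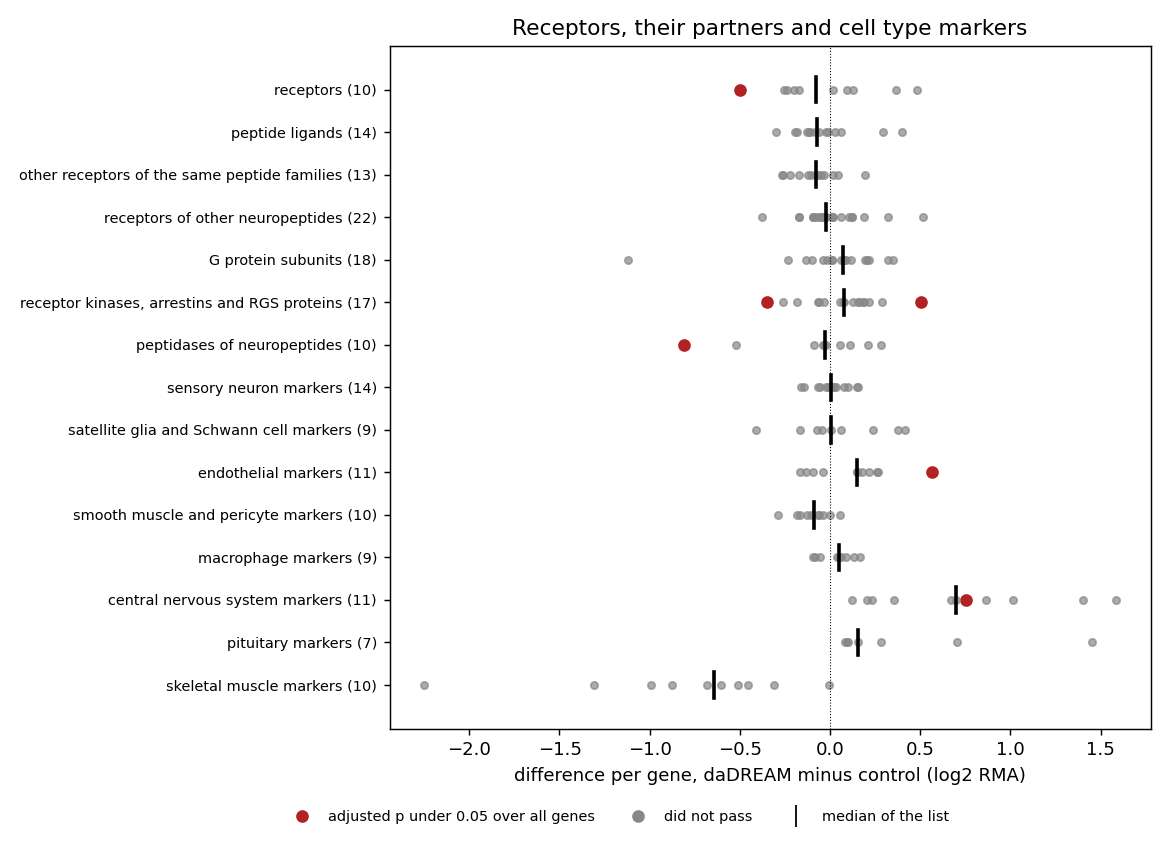
Difference per gene between daDREAM and control ganglia (log2 RMA, horizontal axis) for the receptors, their partners and cell type markers, with the number of measured genes in brackets, red points for genes that passed over all genes and a bar at each list's median. Most lists centre near 0, central nervous system markers lie above 0 (median 0.70) and skeletal muscle markers below it (median -0.64).

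The genes whose values followed those of Galr2 most closely were sought by the root mean square difference between log2 values centred on each gene's mean, over 8 arrays and 13749 genes with a mean of at least 6. They were Ntn5 (0.105), a netrin, the amino acid transporter Slc7a8 (0.105), the antibody-binding ubiquitin ligase Trim21 (0.113), the muscle protein Cmya5 (0.117) and Mri1 (0.122), an enzyme of methionine salvage. Their differences lay between -0.54 and -0.45, and each passed limma over genes, though none did without the arrays richest in Gh or by the unequal-variance test. Likeness here follows from a like shift between groups as well as from like values within them. Other probe sets of Trim21 and Mri1 differed by -0.22 and -0.16 without passing.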

How the data were processed

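RNA of trigeminal ganglia was measured on 1-colour arrays, 4 of daDREAM transgenic and 4 of control mice. The authors deposited log2 expression values per probe set; the submitters' processing notes name RMA and affy, without versions. RMA quantile-normalizes over arrays, so a difference is relative to the genes as a whole. Arrays had medians of 7.09 to 7.13 and correlations of 0.983 to 0.996, and none were identical. The number of arrays limits the precision.

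Of 45101 probe sets, 64 controls were left out, and 34945 of the rest had a single symbol, 932 several and 9160 none. The brightest single-symbol probe set stood for its gene. limma 3.58.1 in R 4.3.3 (lmFit, eBayes, two-sided) was fitted over all 18193 genes and over all 45037 probe sets, with Benjamini-Hochberg adjustment, and was tested on simulated data. Figures were drawn with matplotlib 3.10.9.

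The receptors, lists and tests were chosen with earlier results of these data known. Named genes were the receptors, Kcnip3, genes that mark arrays standing apart, for each list the members that passed (at most 4) or else the 1 with the smallest p, and the 5 genes most like Galr2; ligand genes of the receptors, Ramp2 and Ramp3 were added for their role, after their values were seen. Other settings tried were the replicate block, normalization, filter, variance model, array weights, probe set choice and left-out arrays. Leaving out arrays with the most Gh, Xist or Acta1 or the least Gfap was chosen after seeing the data.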

Additional observations from a re-analysis of the deposited data

Results flagged for a closer look

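Among 36 groups of 4 arrays, 1 held an array far from the other 3, where chance gives about 1 in 20 groups. The dimmest Galr1 probe set (1441329_at) read 4.41 on control replicate 3, against 4.36 for the next and 4.35 for the lowest control array. The gap was 0.05 log2 units at a signal under 6.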

How the results depend on the processing

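Leaving out each array in turn gave 0 to 1 receptor genes and 0 to 1 receptor probe sets past the test. Over all features it gave 229 to 349 genes and 755 to 1271 probe sets. The replicate block gave 2 receptor genes (Galr2 and Npy1r), 672 genes and 2017 probe sets. It also gave 1 receptor of other neuropeptides, 1 G protein subunit, 2 peptidases and 4 central nervous system markers, and pair shifts of -0.51 for the galanin and -0.72 for the NPY receptors (exact sign-flip p = 0.125, the smallest it allows). Deviations of same-numbered arrays correlated at 0.209, 0.00628, 0.331 and 0.36 over genes, and only replicates 3 and 4 correlated best with their own number, so the numbers were not taken as a pairing.

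Renewed quantile normalization gave 1 receptor gene, Npy1r (0.49, limma adjusted p = 0.0488), in place of Galr2 (-0.44, limma adjusted p = 0.0718), and 1 receptor probe set. Leaving out dim probe sets gave 0 receptor genes, since Galr2 was not tested, and 1 receptor probe set. Array weights and the most variable probe set gave 2 receptor genes each (Galr2 and Npy1r). Over all features array weights gave 494 genes and 1520 probe sets. The unequal-variance test gave 0 receptor genes, 0 receptor probe sets, 49 genes and 166 probe sets, and 0 in the lists of kinases and RGS proteins, peptidases, endothelium and central nervous system. The most variable probe set gave 697 genes, 1 G protein subunit, 2 peptidases, 2 neuron markers (Pou4f1 and Prph), 2 endothelial and 2 central nervous system markers, and -0.34 for the galanin pair. The mean of probe sets gave 1 G protein subunit, 1 RGS gene, 2 central nervous system markers and -0.44 for the galanin pair.

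Without the arrays with the most Gh, 0 receptor genes, 0 receptor probe sets, 98 genes and 392 probe sets passed, and 0 kinase and RGS genes, 0 peptidases and 0 endothelial markers. The pair shifts there were -0.36 and -0.51 for the galanin and NPY receptors. Without the arrays with Xist signal the counts were 0 receptor genes, 0 receptor probe sets, 213 genes, 0 kinase and RGS genes and 0 endothelial markers, with pair shifts of -0.40 and -0.69. Without the arrays with the most Acta1 they were 0 receptor genes, 1 receptor probe set (Galr2), 171 genes, 649 probe sets, 1 RGS gene, 0 peptidases and 0 endothelial markers, with shifts of -0.60 and -0.72. Without the control arrays with the least Gfap they were 1 receptor probe set (Galr2), 227 genes, 760 probe sets, 1 G protein subunit, 0 kinase and RGS genes and 0 endothelial markers, with shifts of -0.71 and -0.70. The pair tests on these fewer arrays could not reach 0.05.

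Leaving out 1 array moved the pair shifts between -0.62 and -0.43 (Galr2 minus Galr1), -0.80 and -0.64 (Npy2r minus Npy1r), 0.23 and 0.44 (Sstr2 minus Sstr1) and 0.34 and 0.80 (Ramp1 minus Calcrl). The last was 0.80 without daDREAM replicate 1 (exact permutation p = 0.0286), and Sstr2 minus Sstr1 was 0.44 without daDREAM replicate 3 (exact permutation p = 0.0286). It gave 0 to 1 receptors of other neuropeptides, 0 to 2 kinase and RGS genes, 1 to 2 peptidases, 0 to 1 glial and 0 to 2 central nervous system markers.

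Differences near 0 turned sign. Galr1 read -0.0567 with the mean of probe sets, -0.158 with the most variable one, -0.112 without the most Gh and -0.02 without Xist signal, and -0.0275 to 0.0692 without 1 array. Sstr2 read -0.0383 without Xist signal and -0.0025 without the most Acta1, and Cckbr -0.0675 at the most variable probe set. Gal read -0.0145 after quantile normalization, -0.0186 with array weights, -0.01 without Xist signal, -0.0825 without the least Gfap and -0.0375 to 0.104 without 1 array. Npy read 0.0666 with array weights, 0.0617 without the most Gh, 0.21 without Xist signal and -0.188 to 0.105 without 1 array. Kcnip3 read -0.0373 after quantile normalization, -0.0169 with array weights, -0.085 without the least Gfap and -0.0133 to 0.0933 without 1 array. For all these, the cause was not tested. Of 831 values of single genes or probe sets under 21 alternatives, 692 kept direction and side of the threshold, 102 lost a call, 9 gained one and 28 turned sign.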

Other observations

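Ramp1 shared its uneven values over arrays with several genes, named after their values were seen. By the root mean square difference of centred log2 values over 8 arrays, the closest were Adcyap1r1 (0.108), the receptor of the peptide PACAP, the phosphodiesterase Pde1b (0.114), Vxn (0.123), the neuronal filament Ina (0.124) and Sst (0.137). Adcyap1r1 read 8.66, 9.29, 9.35 and 8.95 in daDREAM ganglia and 8.67, 8.70, 9.19 and 8.40 in control ganglia. Ina read 10.69, 11.80, 11.81 and 11.09 in daDREAM ganglia and 10.61 to 11.58 in control ganglia. In each of these 5 genes and in Ramp1, daDREAM replicates 2 and 3 were the highest of the daDREAM arrays and control replicate 3 the highest of the control arrays. The 5 genes were chosen for likeness over these same arrays, so a shared order follows from the choice. Cck read 6.59, 7.32, 7.44 and 6.26 in daDREAM ganglia and 6.45, 6.07, 6.96 and 6.54 in control ganglia, with the same arrays highest.

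The genes closest to Npy1r by the same measure were Ngp (0.0934), a neutrophil granule protein, Zfp605 (0.105), Cmtm5 (0.109), Slc26a11 (0.114) and Fibin (0.115). Ngp read 6.90, 6.94, 7.22 and 7.33 in daDREAM ganglia and 6.78, 6.41, 6.74 and 7.0 in control ganglia.

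Gnb1, a G protein beta subunit named after its values were seen, had separate levels that did not follow the groups. It read 9.94, 9.75, 10.13 and 9.74 in daDREAM ganglia and 12.16, 9.99, 9.51 and 12.37 in control ganglia, so control replicates 1 and 4 stood apart from the other 6 arrays.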
